A study of Mus musculus with 15 samples.

Results

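Glul, Ndrg2, Mlc1, Aldh1l1, Cst3 and Clu, which are strongly expressed in astrocytes, and the myelin gene Mbp were followed on arrays that compared mutant with wild-type mouse brain. Each gene was read through every probe whose only gene symbol, updated through gene identifiers, was that of the gene. Of the 20205 probes in the table, which name 9669 genes singly, 10 belonged to these 7 genes: 2 each for Glul, Ndrg2 and Mbp, and 1 each for the other genes. The mutant RNA came from 5 brains of mice homozygous for O377, a mouse line that carries a changed Crybb2, a crystallin gene, and the reference was RNA pooled from 4 wild-type brains. Both genotypes were hybridised together on 15 arrays of 2 colours, with mutant RNA in Cy5 on 7 arrays and in Cy3 on 8. The labels used here give no age, strain or brain region, and they tie no array to a single mutant brain or to a mix of them. Arrays are numbered 1 to 15 in accession order, which only names them, and every p-value below rests on variation among arrays, part or all of which may be technical.

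Astrocytes are the glial cells that take up transmitter, buffer ions and water, feed neurons and wrap blood vessels with their endfeet. Oligodendrocytes wrap axons with myelin, a stack of membranes held together by a few abundant proteins. Transcripts of both cell types are used in whole-brain RNA to follow glial content and glial reactions. In RNA of whole brain, fewer cells of a type and less RNA per cell cannot be told apart.

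The values are log ratios of the 2 channels, taken as log2, and no source used here states which channel is the numerator. Each probe was therefore described by its mean in each dye orientation and by 2 components. The dye-switching component takes the mean with the mutant in Cy5, subtracts the mean with the mutant in Cy3 and divides by 2. It is the genotype difference, positive for higher in the mutant, if ratios run Cy5 over Cy3. The shared component is the mean of both orientation means, and it is the genotype difference if ratios run mutant over wild type. Under either reading the other component is the effect of the dyes, so no value below is given as higher or lower in the mutant.

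Per array, 7843 to 10515 probes had a value, array medians lay between -0.00618 and 0.0165, and interquartile ranges ran from 0.386 to 0.731 except on array 10 (0.892), with array 9 at 0.731. Testing required a value on 4 or more arrays in each orientation, which left 8058 probes. The probe of Crybb2, the gene altered in the mutant, had means of -0.01 ± 0.29 (SD) on the 7 arrays with mutant RNA in Cy5 and 0.01 ± 0.26 on the 8 with it in Cy3. Its position relative to the mutation is not known here, so it checks no label. Over all probes, the correlation between arrays of 1 orientation averaged 0.042 and ran from -0.0521 to 0.135. Between arrays of opposite orientation it averaged 0.0051 and ran from -0.117 to 0.105.

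Of the 10 member probes, 9 had values and all 9 were tested. The exception was Ndrg2 probe 2698, which had no value on any array, as did 19.9% of all probes. Member probes were well covered: 8 of 10 had a value on all 15 arrays, beside 20.5% of all probes. Glul probe 2515 had values on 11 arrays. No source used here gives the rule by which spots were left out, so a missing value cannot be read as a low level, and ratios give no level by which the labelled tissue could be checked.

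No member passed the threshold of 0.05 for the adjusted p (limma, Benjamini-Hochberg over all tested probes). In the dye-switching component 0 of 9 member probes were called, where 52 of 8058 tested probes (0.645%) were, and the smallest adjusted p of a member was 0.419. At an unadjusted p under 0.05 there were 2 member probes, Glul 2515 and Mbp 18419, beside 9.57% of all tested probes. In the shared component 0 of 9 were called, beside 0 of all tested probes (0%), with a smallest adjusted p of 0.647. At an unadjusted p under 0.05 there were 0 members, beside 9.49% of all tested probes. Values of both orientations overlapped for each of the 9 member probes, while they did not for 0.906% of tested probes. The median size of the dye-switching component was 0.077 over the members and 0.079 over all tested probes.

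**Figure D1:**
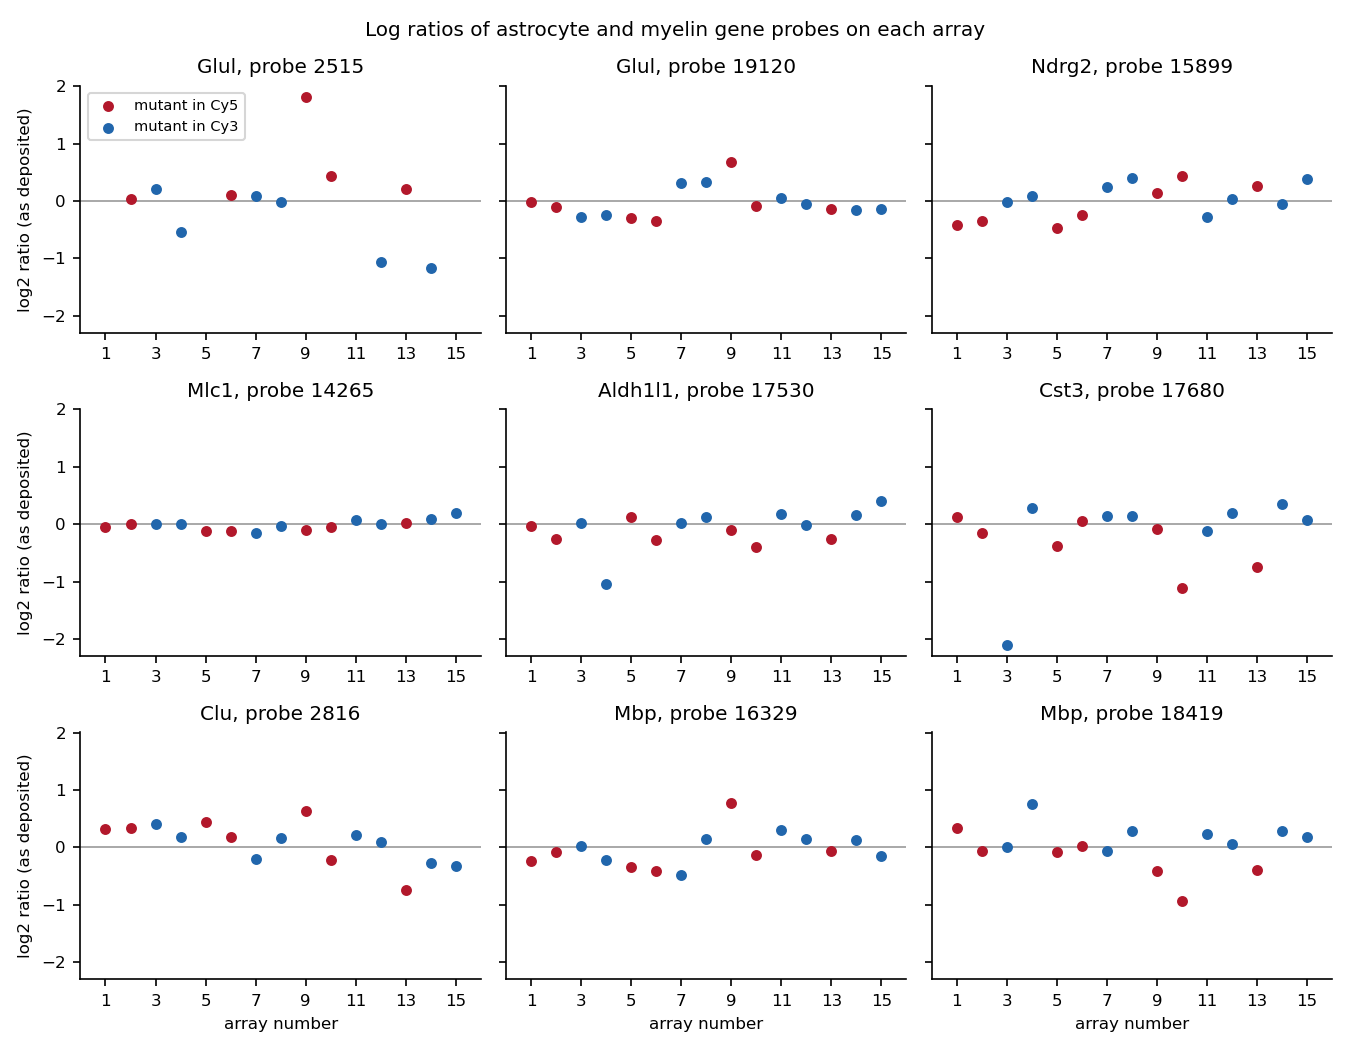
Log ratios as deposited, taken as log2 (vertical axis), of the 9 measured probes on arrays 1 to 15 (horizontal axis). Points are red with the mutant in Cy5 and blue with the mutant in Cy3. Mlc1 stays between -0.15 and 0.19 on every array, while Cst3 reaches -2.10 on array 3 and Glul probe 2515 reaches 1.81 on array 9.

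Glul encodes glutamine synthetase, the astrocyte enzyme that turns transmitter glutamate taken up from synapses into glutamine. Its 2 probes gave different results. On probe 2515 the values with the mutant in Cy5 were 0.03, 0.10, 1.81, 0.43 and 0.20 on arrays 2, 6, 9, 10 and 13, all above 0. With the mutant in Cy3 they were 0.21, -0.54, 0.08, -0.02, -1.05 and -1.16 on arrays 3, 4, 7, 8, 12 and 14. The groups overlapped between 0.03 and 0.21, array 9 stood far above the rest, and arrays 12 and 14 far below. The dye-switching component of this probe was 0.46 ± 0.18 (SE, n = 11 arrays), a 1.38-fold difference, with a 95% interval from 0.08 to 0.85. Its unadjusted limma p was 0.0226 and its adjusted p 0.421, and a two-sided exact permutation test of the orientations gave an unadjusted p of 0.039. With the sign turned for the dye it lay on the positive side on 9 of 11 arrays. Without array 9 the component was 0.30, and without arrays 9 and 10, on which too few values remained, it could not be fitted. Its shared component was 0.05 ± 0.18, and -0.11 without array 9.

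Glul probe 19120, measured on all arrays, showed no such separation. It ran from -0.35 through a median of -0.11 to 0.68 with the mutant in Cy5, and from -0.28 through -0.10 to 0.33 with the mutant in Cy3. The highest value was again that of array 9, and the other 6 arrays of that orientation lay at or below -0.01. Its dye-switching component was -0.01 ± 0.08 (SE, n = 15 arrays), with an interval from -0.18 to 0.15, so a difference above 1.13-fold lay outside the interval. Without array 9 it was -0.07, and its sign turned in 4 of the 15 fits that left out 1 array. The shared component was -0.03 ± 0.08, adjusted p = 0.903 by limma, and -0.09 without array 9.

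The difference between the 2 Glul probes was tested directly, array by array, a comparison chosen after the values were seen. Their dye-switching components differed by 0.46 ± 0.15 (SE, n = 11 arrays), with a two-sided exact permutation p of 0.0152, or 0.0303 adjusted over the 2 genes with a pair of measured probes. It was 0.38 without array 9 (exact p = 0.0381), and the exact p was between 0.00794 and 0.0381 whichever array was left out. Across the 11 arrays the probes had a Pearson r of 0.57 (permutation p = 0.0704, adjusted 0.428 over 36 pairs of member probes) and a Spearman rho of 0.12 (permutation p = 0.733). Without the 2 arrays farthest from the median of probe 2515 the r was 0.008, and without arrays 9 and 10 it was 0.083, so the relation rested on array 9. On these arrays the value given for Glul differed with the probe read, but neither probe passed the threshold on its own (limma adjusted p 0.421 and 0.976). As the pair was picked with the values in view, its p-value is only a description. With the probes of the gene averaged on each array, the dye-switching component was 0.16, adjusted p = 0.67 by limma. On arrays where probe 2515 had no value, this average was the other Glul probe alone. The 0.16 is therefore not the mean of both probes on the 11 arrays that had both.

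**Figure D2:**
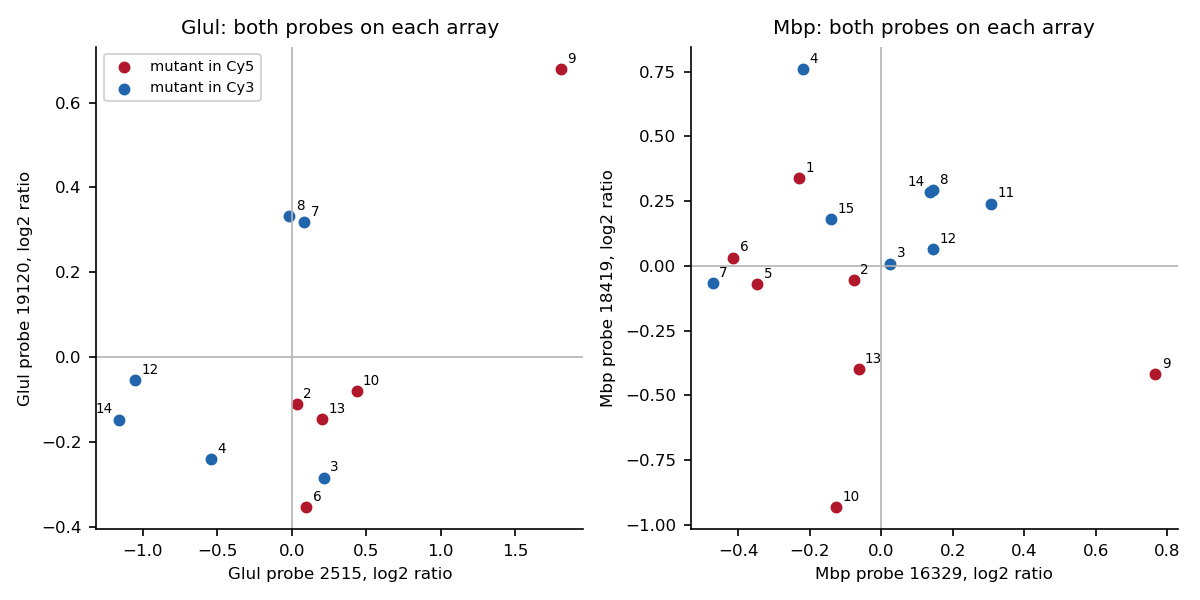
Log2 ratio on each array of the first probe of a gene (horizontal axis) and of its second probe (vertical axis), for Glul (left, 11 arrays) and Mbp (right, 15 arrays), labelled by array number, in red with the mutant in Cy5 and in blue with the mutant in Cy3. Array 9 is high on both Glul probes (1.81 and 0.68) and on opposite sides on the Mbp probes (0.77 and -0.42).

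Mbp encodes myelin basic protein, which holds the inner faces of the myelin membrane together. On probe 18419 the values ran from -0.93 through a median of -0.07 to 0.34 with the mutant in Cy5, and from -0.07 through 0.21 to 0.76 with the mutant in Cy3. The lowest 3 values, on arrays 10 (-0.93), 9 (-0.42) and 13 (-0.40), were all from the Cy5 orientation, while 7 of 8 arrays of the Cy3 orientation lay above 0. This gave a dye-switching component of -0.22 ± 0.09 (SE, n = 15 arrays), a 1.16-fold difference, with an interval from -0.40 to -0.04. The unadjusted limma p was 0.022 and the adjusted p 0.419, and the two-sided exact permutation p was 0.0213, unadjusted. With the sign turned for the dye 12 of 15 arrays lay on the negative side. Leaving out 1 array moved the component between -0.26 and -0.16, the latter without array 10, and adjusted p stayed between 0.262 and 0.566. Without arrays 9 and 10, which hold the 2 lowest values, it was -0.13, with an unadjusted limma p of 0.111. Its shared component was 0.003 ± 0.09.

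Mbp probe 16329 was closer to 0 in the dye-switching component. It ran from -0.41 through a median of -0.13 to 0.77 with the mutant in Cy5, and from -0.47 through 0.08 to 0.31 with the mutant in Cy3. Array 9 was the only 1 of 7 arrays of the Cy5 orientation above 0. The dye-switching component was -0.03 ± 0.08 (SE, n = 15 arrays), with an interval from -0.21 to 0.15, and it was -0.10 without array 9. Its shared component was -0.04 ± 0.08, and -0.11 without array 9 (adjusted p = 0.454). The Mbp probes differed by 0.19 ± 0.13 in the dye-switching component (two-sided exact permutation p = 0.192), and by 0.10 without array 9 (exact p = 0.411). Across the 15 arrays they had an r of -0.13 (permutation p = 0.634) and a rho of 0.018 (permutation p = 0.954), or an r of -0.36 over the 7 and 0.046 over the 8 arrays of each orientation. Without the 2 arrays farthest from the median of probe 16329 the r was 0.10.

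Mlc1 encodes a membrane protein of astrocyte endfeet whose loss causes a leukodystrophy with swollen white matter. Its values lay between -0.12 and 0.02, with a median of -0.05, with the mutant in Cy5, and between -0.15 and 0.19, with a median of 0.007, with the mutant in Cy3. No array stood apart. The residual SD, the spread between arrays of 1 orientation, was 0.0833, the lowest of all 8058 tested probes, beside a median of 0.337. It was also the lowest with arrays centred on their medians (0.0794) and with arrays scaled by their interquartile ranges (0.0956). The next lowest was that of Usp30, at 0.1. Among the 4135 probes with a value on all arrays, Mlc1 was again the lowest, beside a median of 0.285. Why this probe varied so little was not tested, since intensities were not analysed here. The dye-switching component of Mlc1 was -0.04 ± 0.04 (SE, n = 15 arrays), with an interval from -0.13 to 0.05, and the shared component -0.02 ± 0.04, from -0.11 to 0.07. A difference beyond 1.09-fold in the first or 1.08-fold in the second therefore lay outside the interval, the narrowest bounds of the 9 probes. With the sign turned for the dye 10 of 15 arrays lay on the negative side, with a two-sided exact permutation p of 0.0853 and a limma adjusted p of 0.81.

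**Figure D3:**
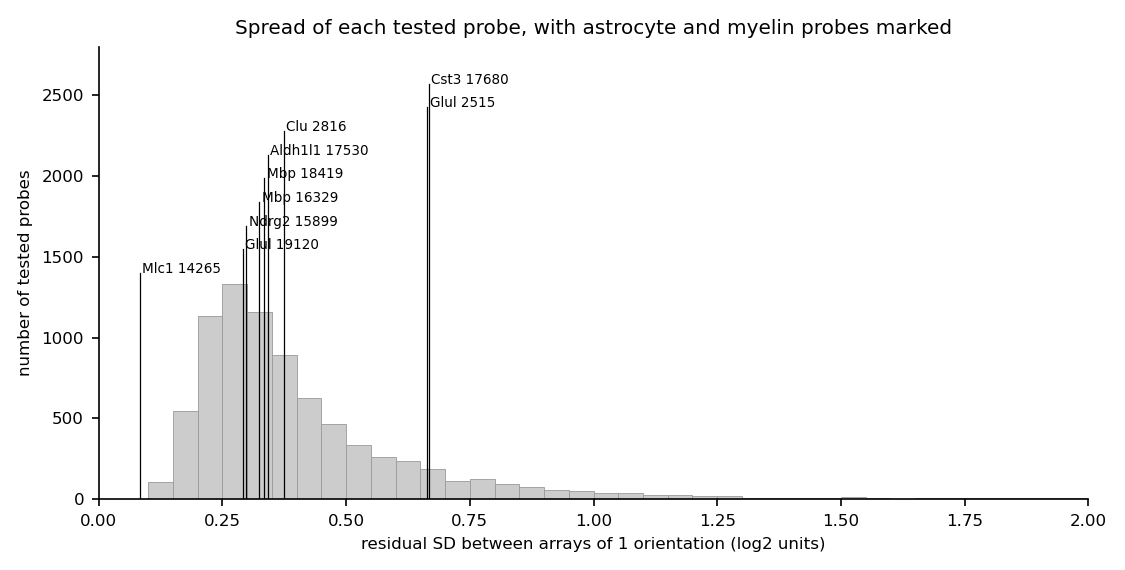
Number of tested probes (bars, vertical axis) by residual SD between arrays of 1 orientation in log2 units (horizontal axis, bars 0.05 wide, 34 probes above 2 not drawn), with a line for each of the 9 probes of the 7 genes. Mlc1 at 0.0833 lies left of all other probes, Glul probe 2515 (0.664) and Cst3 (0.667) lie in the right tail, and the other 6 stand near the median of 0.337.

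Aldh1l1 encodes a folate enzyme, a formyltetrahydrofolate dehydrogenase, that marks astrocytes throughout the brain. Values ran from -0.39 through a median of -0.25 to 0.13 with the mutant in Cy5, where 6 of 7 lay below 0. They ran from -1.04 through 0.08 to 0.41 with the mutant in Cy3, where 6 of 8 lay above 0. Array 4 held the value of -1.04, and the next lowest of its orientation was -0.01. The dye-switching component was -0.08 ± 0.09 (SE, n = 15 arrays), adjusted p = 0.819 by limma, and 12 of 15 arrays lay on its negative side with the sign turned for the dye. Without array 4 it was -0.15 (adjusted p = 0.422). The shared component was -0.09 ± 0.09, and -0.02 without array 4. Robust regression gave -0.13 with an adjusted p of 0.129, the smallest of any member probe under any setting run.

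Ndrg2 encodes a protein of the NDRG family, related to hydrolases, that is abundant in astrocytes. On its measured probe, values ran from -0.47 through a median of -0.25 to 0.43 with the mutant in Cy5, and from -0.28 through 0.07 to 0.40 with the mutant in Cy3. In the Cy5 orientation arrays 1, 2, 5 and 6 lay between -0.47 and -0.25, and arrays 9, 10 and 13 between 0.13 and 0.43. The range of the Cy3 orientation lay within that of the Cy5 orientation, with arrays 1, 2 and 5 below it and array 10 above it. The dye-switching component was -0.10 ± 0.08 (SE, n = 15 arrays), adjusted p = 0.747 by limma, with an interval from -0.26 to 0.07, and -0.17 without arrays 9 and 10. The shared component was 0.003 ± 0.08.

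Cst3 encodes cystatin C, a secreted inhibitor of cysteine proteases made by astrocytes and microglia. Values ran from -1.11 through a median of -0.15 to 0.12 with the mutant in Cy5, and from -2.10 through 0.14 to 0.35 with the mutant in Cy3. Array 3 held the value of -2.10, lower than all but 0.8% of the probes on that array, and the next lowest of its orientation was -0.11. Arrays 10 (-1.11) and 13 (-0.74) were lowest in the other orientation. The dye-switching component was -0.10 ± 0.16 (SE, n = 15 arrays), adjusted p = 0.878 by limma, with an interval from -0.43 to 0.24. It was -0.24 without array 3 (adjusted p = 0.406) and -0.03 without array 10. The shared component was -0.23 ± 0.16, the largest of the members in size, adjusted p = 0.647, and -0.09 without array 3.

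Clu encodes clusterin, a secreted chaperone that also binds lipid as an apolipoprotein. Values ran from -0.74 through a median of 0.33 to 0.64 with the mutant in Cy5, and from -0.32 through 0.14 to 0.41 with the mutant in Cy3. Arrays 1 to 6 lay between 0.19 and 0.44, and arrays 13, 14 and 15 at -0.74, -0.28 and -0.32, with both orientations in each run. For Clu the dye-switching component was 0.05 ± 0.09 (SE, n = 15 arrays), adjusted p = 0.898 by limma. It was 0.01 without array 9 and 0.12 without array 13. The shared component was 0.09 ± 0.09, adjusted p = 0.771, and it was 0.05 without array 9 and 0.16 without array 13.

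**Figure D4:**
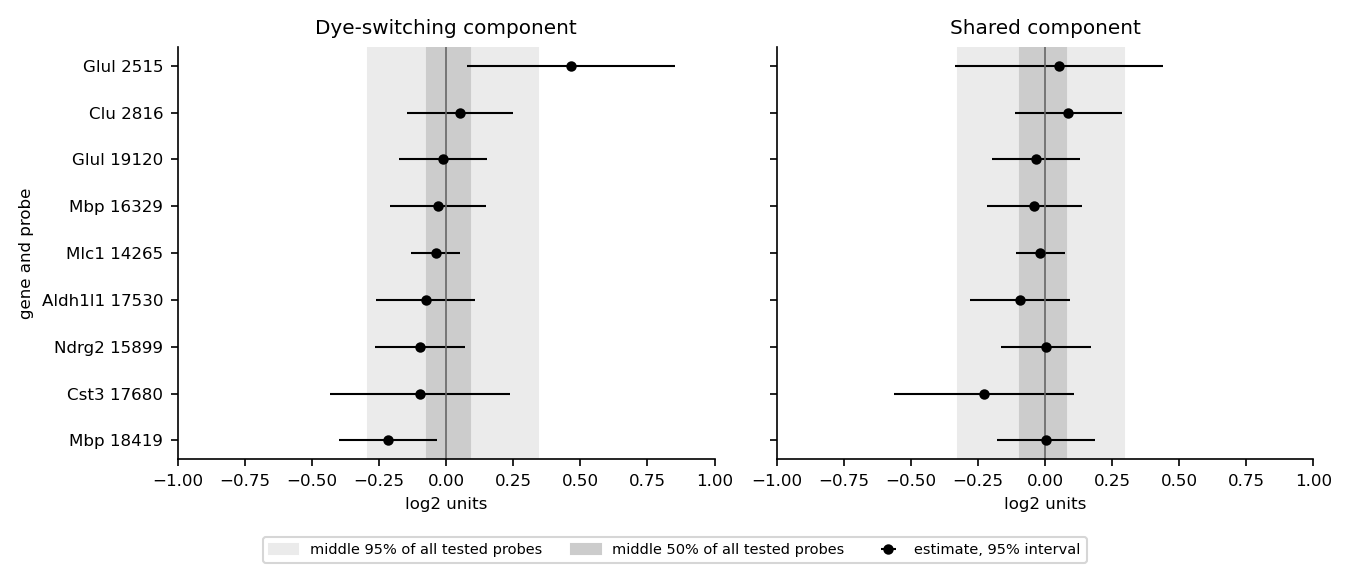
Dye-switching (left) and shared component (right) of the 9 probes, in log2 units on the horizontal axis, as estimates with 95% intervals from limma. The light and dark bands hold the middle 95% and 50% of all tested probes, and Glul probe 2515 at 0.46 is the only estimate of the members outside the light band (-0.29 to 0.34).

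In order of the dye-switching component, Glul probe 2515 (0.46) was followed by Clu (0.05), Glul probe 19120 (-0.01), Mbp probe 16329 (-0.03), Mlc1 (-0.04), Aldh1l1 (-0.08), Ndrg2 and Cst3 (both -0.10) and Mbp probe 18419 (-0.22). No pair of neighbours in this order differed past the threshold: of 8 pairs, Glul 2515 against Clu had the smallest two-sided exact permutation p, 0.0303, which was 0.242 adjusted over the 8. Neighbours lie close by the way they were picked, so this cannot show that the probes are alike. Probes farther apart in the order were not compared in this test. The members had 2 positive and 7 negative components, with a median of -0.04, beside a median of 0.007 over all tested probes. In the shared component 4 were positive and 5 negative, with a median of -0.02 beside -0.005.

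The median over the member probes was computed on each array as a description. With the mutant in Cy3 it lay above 0 on 8 of 8 arrays, between 0.001 and 0.14. With the mutant in Cy5 it lay below 0 on 6 of 7 arrays, between -0.20 and -0.02, the exception being array 9 at 0.13. The same median over all tested probes lay between -0.015 and 0.033. It was above 0 on 4 of 8 arrays with the mutant in Cy3 and below 0 on 2 of 7 with the mutant in Cy5. A median over so many probes gives no rate for one over 9 probes. Members were also chosen with earlier results of these data known, so the counts are no test of a shift of the set. Over the other astrocyte markers (16 probes) the median was above 0 on 5 of 8 arrays with the mutant in Cy3 and below 0 on 2 of 7 with the mutant in Cy5. Over the other oligodendrocyte and myelin markers (15 probes) these counts were 6 of 8 and 5 of 7. The ranges of both orientations overlapped for the member probes and for both marker lists, and no difference between them was tested.

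**Figure D5:**
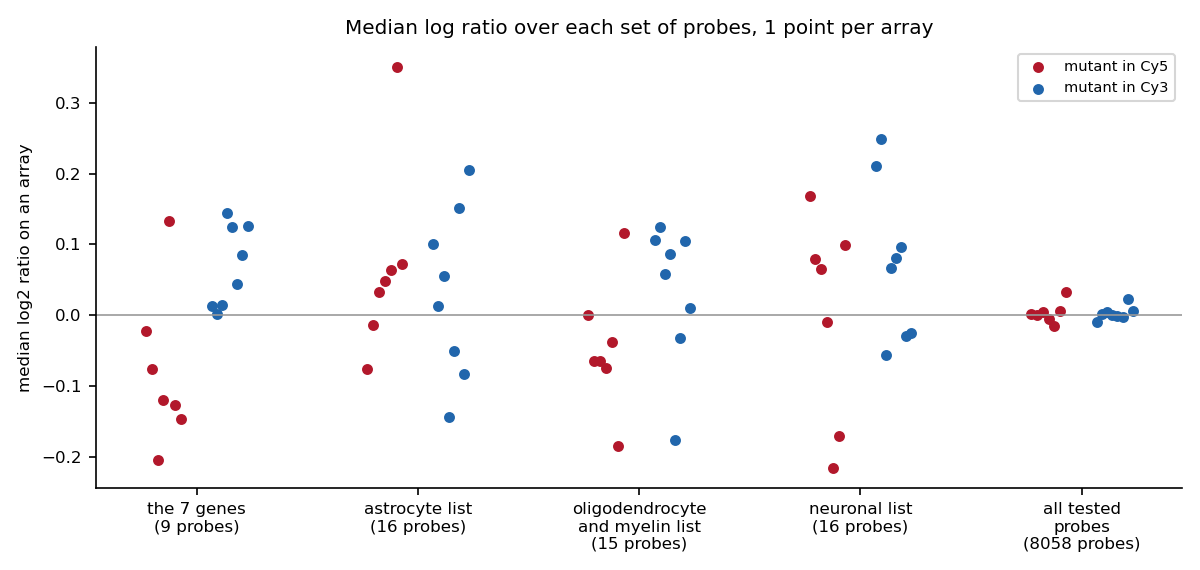
Median log2 ratio on an array (vertical axis) over the probes of the 7 genes, 3 marker lists and all tested probes (horizontal axis), 1 point per array, in red with the mutant in Cy5 and in blue with the mutant in Cy3. For the 7 genes all 8 blue points lie above 0 and 6 of 7 red points below it, with array 9 at 0.13.

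Members did not vary together across arrays past the threshold. Of 36 pairs of member probes, 0 passed in Pearson r or Spearman rho after adjustment over the pairs, while 2 had an unadjusted permutation p under 0.05 in r and 4 in rho. Closest to the threshold were 3 pairs in rho, each with an adjusted permutation p of 0.0566. Glul probe 2515 and Cst3 had a rho of -0.85 (n = 11 arrays, permutation p = 0.00181) and an r of -0.33 (permutation p = 0.318). Glul probe 2515 and Mbp probe 18419 had a rho of -0.82 (n = 11 arrays, permutation p = 0.00328) and an r of -0.59 (permutation p = 0.0597). For both pairs the r without arrays 9 and 14, the 2 farthest from the median of the Glul probe, was -0.56 and -0.59. Within the Cy3 orientation (n = 6 arrays) their r was -0.57 and -0.29, and it was not computed for the 5 arrays of the Cy5 orientation. The permutations ran across both orientations, so orientation differences of the 2 probes of a pair enter these p-values. Cst3 and Mbp probe 18419 had a rho of 0.70 (n = 15 arrays, permutation p = 0.00472) and an r of 0.51 (permutation p = 0.0714), or 0.69 without arrays 3 and 10, the 2 farthest from the median of Cst3. Their r was 0.86 and 0.38 within the Cy5 and the Cy3 orientation. Ndrg2 and Clu had an r of -0.55 (n = 15 arrays, permutation p = 0.0317, adjusted 0.428) and a rho of -0.62 (permutation p = 0.016, adjusted 0.144). Their r was -0.61 and -0.38 within the Cy5 and the Cy3 orientation, and -0.47 without the 2 arrays farthest from the median of Ndrg2. Glul probe 19120 and Mbp probe 16329 had an r of 0.60 (n = 15 arrays, permutation p = 0.0237, adjusted 0.428) and a rho of 0.44 (permutation p = 0.1, adjusted 0.6). Within orientations their r was 0.97 and -0.12, and without the 2 farthest arrays 0.031, so this relation rested on array 9.

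The other markers of glia were described from the same model, by counts and medians. Of 52 further astrocyte markers, 34 were on the array under a single symbol and 13 were tested, with 16 probes. None of these 16 passed the threshold in either component, and 1 and 0 had an unadjusted p under 0.05. The median was 0.022 in the dye-switching and 0.068 in the shared component. Gfap, Aqp4, Slc1a2, Slc1a3, Kcnj10, Gja1 and Apoe, which include the best known astrocyte markers, were not among the tested probes. Hepacam, the adhesion protein that anchors MLC1 at endfeet, was the only tested partner of Mlc1. It stood at -0.24 ± 1.03 (SD) on the 7 arrays with mutant RNA in Cy5 and 0.07 ± 0.33 on the 7 with it in Cy3, a dye-switching component of -0.15 ± 0.18 (SE). The spread of Hepacam was thus far wider than that of Mlc1.

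Of 37 further oligodendrocyte and myelin markers, 23 were on the array and 11 were tested, with 15 probes. None passed in either component, with medians of 0.006 and -0.008, and 2 and 1 probes had an unadjusted p under 0.05. Mog, Mag, Mobp, Cnp and Mal, which encode other proteins of myelin, were not among the tested probes. Ndrg1, a relative of Ndrg2 found in oligodendrocytes, had a dye-switching component of -0.08 ± 0.07 (SE, n = 15 arrays), beside -0.10 for Ndrg2. Apod, a lipid carrier of oligodendrocytes and astrocytes, was at 0.06 ± 0.06.

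Genes that act with the members showed no call either. In the glutamate and glutamine cycle, in which Glul works, 0 of 5 tested probes passed in either component, with medians of 0.021 and 0.023, and Glud1, glutamate dehydrogenase, had a dye-switching component of -0.05 ± 0.08 (SE). In folate metabolism, to which Aldh1l1 belongs, 0 of 4 passed, with medians of 0.037 and 0.031. Shmt1, a serine hydroxymethyltransferase, was at 0.13 ± 0.10 and Mthfd1, a folate enzyme of several activities, at -0.43 ± 0.28 in the dye-switching component. Among other cystatins and lysosomal proteins, most of the latter not cysteine proteases, 0 of 6 passed, with medians of 0.005 and 0.055. Cstb, an intracellular cystatin, was at 0.06 ± 0.07, the protease gene Ctsd at -0.10 ± 0.07 and the lysosomal activator gene Psap at 0.03 ± 0.06 in the dye-switching component. Among apolipoproteins and their receptors, the relatives of Clu in lipid transport, Apod and the receptor gene Lrp1 (0.12 ± 0.10) were the 2 tested probes, and neither passed. In the shared component the glutamate, folate and cystatin lists each had 1 probe with an unadjusted limma p under 0.05. The apolipoprotein list had 0, as had each of these lists in the dye-switching component.

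Markers of other cells were read in the same way. Thy1, a neuronal surface glycoprotein, was the 1 called probe among all 73 tested list probes. Its means were -0.55 ± 0.41 (SD) on the 7 arrays with mutant RNA in Cy5 and 0.52 ± 0.46 on the 8 with it in Cy3, with an adjusted p of 0.0276 in the dye-switching component. Thy1 was not called when array 1, 2, 3, 4, 9, 11 or 12 alone was left out, nor without arrays 9 and 10 together. The other 15 neuronal probes were not called, and the list's median was 0.016. Of 4 microglia probes, which bear on Cst3, 0 passed, with a median of -0.015, from -0.05 to 0.004. Of 7 endothelium and pericyte probes 0 passed, with a median of 0.042. Markers of oligodendrocyte precursors and of choroid plexus and ependyma had 0 tested probes. The part of other cell types in the values of the members was not tested.

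For each member probe with values on at least 12 arrays, the 3 probes of a single symbol with the most similar log ratios were found among 4190, as a description with no test, since all share the same arrays and the highest of so many correlations is large by selection. For Glul probe 19120 they were Cds2, Slc36a1 and Sub1, with Pearson r of 0.91, 0.86 and 0.85 and Spearman rho of 0.88, 0.58 and 0.80. For Ndrg2 they were Ints5, Vdac2 and Dpf3, each with an r of 0.88 and with Spearman rho of 0.91, 0.89 and 0.9. Mlc1 had the lowest r, with Med20 (0.82), Coa4 (0.78) and Srrm2 (0.77), and rho of 0.70, 0.71 and 0.60. Aldh1l1 was most like Nr1h4, Ugt2b36 and Spaca1, with r of 0.87, 0.87 and 0.86 but rho of 0.62, 0.47 and 0.71. Cst3 was most like Pphln1, Fndc5 and Mrpl52, with r of 0.93, 0.85 and 0.83, and rho of 0.59, 0.74 and 0.67. Clu was most like Nlrp14, Tlcd4 and Ifnar2, with r of 0.87, 0.86 and 0.86, and rho of 0.69, 0.80 and 0.81. The Mbp probes shared no gene among their 3: probe 16329 was most like Kat6a, Mcat and Syndig1l (0.91, 0.91 and 0.89), and probe 18419 like Cebpd, Sfxn3 and Mrpl52 (0.91, 0.90 and 0.87). In the same order the rho was 0.89, 0.825 and 0.84 for probe 16329, and 0.91, 0.71 and 0.72 for probe 18419. Mrpl52 was thus among the 3 of both Cst3 and Mbp probe 18419, and no member probe was among the 3 of another.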

How the data were processed

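Brain RNA of O377 homozygous mice was compared with a wild-type pool on 15 arrays of 2 colours. The authors deposited 1 log2 ratio per probe and array. Base and direction are not stated: base 2 was taken because the largest value in size, 12.3, exceeds the natural log of the largest 16-bit ratio, 11.1. That bound holds for intensities as scanned, so base 2 remains an assumption. Background correction, normalization, spot filter and scanner are not given in the sources used here. Medians near 0 show that arrays had been centred, and values were used as deposited. Names came from GEO's annotation of the platform, updated to GRCm38.p6 symbols: 4775 tested probes had 1 symbol, 342 several and 2941 none.

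A limma 3.58.1 model (R 4.3.3) with a dye term was fitted to all probes with values on at least 4 arrays of each orientation. It used eBayes and Benjamini-Hochberg adjustment over all 8058. The model was also run on simulated data, where calls were required only for components far larger than those of the members. Exact tests reassigned the dye orientations of single probes. Correlations used 100000 permutations. The test between probes of 1 gene, its repeats with an array left out, the correlations between members, and the rank of the residual SD were chosen after the values were seen. The pairs of neighbours were set by the same values that their test compared. Members, lists and rules were chosen with earlier results of these data known. Named list genes were chosen by role, or for passing the threshold. Acta2, Gap43, Scara3, Septin4 and Usp30 were picked outside that rule, with their values in view. Alternatives were other filters, centring, scaling, weights, priors, robust regression, limits of -2 and 2, no dye term, averaged probes, runs of 4 arrays as a block, and arrays left out. Precision is limited by the number of arrays, and the wild-type pool is 1 control sample whose own spread is left out.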

Additional observations from a re-analysis of the deposited data

Results flagged for a closer look

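Of 18 sets of values, each a member probe in 1 dye orientation, 6 held an array far from the others by Dixon's test at the 95% level. A rate of about 1 in 20 holds for independent, normally distributed values. These sets share arrays, and the share flagged over all tested probes was not computed, so the 6 cannot be read as an excess. Array 9, with the mutant in Cy5, was the one that stood apart in 3 of the 6. It held 1.81 on Glul probe 2515 (next highest 0.435), 0.679 on Glul probe 19120 (next -0.0107) and 0.767 on Mbp probe 16329 (next -0.0635). On that array these values were above 97%, 83.7% and 86.5% of all probes, and its interquartile range of 0.731 was the widest after that of array 10. Array 4, with the mutant in Cy3, held -1.04 on Aldh1l1 (next lowest -0.00987) and 0.761 on Mbp probe 18419 (next highest 0.294). Its interquartile range, 0.406, was among the narrower ones. Array 3, with the mutant in Cy3, held -2.10 on Cst3 (next lowest -0.114). The cause of these values was not tested.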

How the results depend on the processing

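No member probe passed the threshold in either component under any alternative that could be run for it (Glul probe 2515 had too few values for 6 arrays of each orientation and without arrays 9 and 10), robust regression included, which called 204 and 107 probes over all. Of 482 refitted values of member probes, 452 kept their sign and their side of the threshold and 30 turned their sign, all of them uncalled. In the shared component Glul probe 2515 (0.05) was -0.0547 with scaled arrays, -0.0639 with array weights, -0.0113 with robust regression and -0.0161 with averaged probes. Ndrg2 (0.003) was -0.0153, -0.0533 and -0.00113 under the first 3 of these and -0.0722 without arrays 9 and 10. Mbp probe 18419 (0.003) was -0.00026 with centred arrays and -0.0185 with averaged probes. In the dye-switching component Glul probe 19120 (-0.01) was 0.16 with averaged probes. Values with averaged probes are those of the gene, entered under each of its probes and counted so among the 482. A sign turn under that setting therefore mixes in the other probe of Glul or Mbp. Leaving out each array in turn gave, where signs turned, -0.11 to 0.127, -0.0407 to 0.0348 and -0.0434 to 0.0625 for those 3 shared components and -0.0729 to 0.0133 for Glul probe 19120. The count of list probes called in the dye-switching component (1) was 2 with scaled arrays or array weights, 5 with robust regression, and 0 to 1 with an array left out. The causes of these changes were not tested. The random block of runs of 4 arrays (correlation 0.0215) changed no call of a member.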

Other observations

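Among the list genes, 2 came close to the threshold in the dye-switching component, and they are named here after their values were seen. Acta2, smooth muscle actin of vessel walls, averaged 0.23 ± 0.14 (SD) over the 7 arrays with Cy5-labelled mutant RNA and -0.19 ± 0.13 over the 8 with Cy3, with an adjusted p of 0.0756 by limma. Scara3, a scavenger receptor family member on the astrocyte list, averaged 0.38 ± 0.28 and -0.14 ± 0.11, with an adjusted p of 0.0786, and it passed with scaled arrays, array weights, robust regression, without arrays 9 and 10, and without array 9 alone. Septin4, a septin on the myelin list, had probes on opposite sides: 0.11 ± 0.07 (SE, n = 14 arrays) and -0.16 ± 0.06 (SE, n = 15 arrays), with adjusted p of 0.64 and 0.324. With robust regression Acta2, a probe of Septin4 and Gap43, a gene of the neuronal list, passed as well.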
